A study of Mus musculus with 3 samples.

Results

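The 9 genes described here are markers of neurons and glia, 6 neuronal (Stmn2, Tubb3, Elavl4, Gap43, Chrna3 and Chrnb4) and 3 glial (Sox10, Fabp7 and S100b), among 19938 genes measured on the arrays. They were chosen by symbol, each from the probe set (the group of probes for a transcript) that names that gene alone, and each of the 9 had 1 such probe set. RNA came from mouse kidney explants, embryonic kidneys of the strain C57BL/6 isolated at E11.5 and kept on Transwell filters for 48 h. The media were serum-free DMEM with retinoic acid, at a dose the labels do not state, serum-free DMEM without it, and DMEM with 10% FBS, called retinoic acid, serum-free and serum below. Each medium had 1 Affymetrix Mouse Gene 1.0 ST array, 3 in all, so no difference has an error, a p-value or a replicate check, and the number of arrays limits the precision. How many kidneys went into each array, and the sex of the embryos, are not stated in the labels.

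Nerve fibres and neural crest cells enter the kidney region with the vessels and from the neighbouring sympathetic chain and adrenal primordium, and an explant can carry some of them. Neurons of autonomic ganglia express nicotinic acetylcholine receptors, ion channels built from several subunits that pass on the signal of the preganglionic fibre, and they grow axons rich in tubulin and its regulators. Glia of peripheral nerves and their precursors depend on the transcription factor Sox10 and also derive from the neural crest.

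Levels are log2 intensities, so that a difference of 1 is 2-fold. A floor was set at the median of all gene values, 7.12 on the log2 scale or an intensity of 140, and differences were counted at 2-fold or more, and in a second count at 1.5-fold or more, among genes whose brighter value of the compared arrays reached that floor. Levels of different genes were not set against each other, since probe sets differ in response. Of the 9 members, 5 (Stmn2, Elavl4, Gap43, Chrna3 and Fabp7) reached the floor on every array, 2 (Tubb3 and Chrnb4) on the retinoic acid array only, and 2 (Sox10 and S100b) on no array. For the 4 genes not above it throughout, the size of a difference is less certain. As a yardstick for probes alone, with no share of the spread between embryos or cultures, 95% of 1071 pairs of probe sets of the same gene disagreed by less than 0.28 in retinoic acid against serum-free, 95% of 1067 by less than 0.28 in serum-free against serum, and 95% of 1077 by less than 0.33 in retinoic acid against serum. Values were exactly equal on all 3 arrays for 38.4% of genes, so an exact 0 is common on these arrays and does not measure equal expression.

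Stmn2, Chrna3, Chrnb4 and Tubb3 were highest with retinoic acid and lowest in serum, though each step of Tubb3 was within the probe set disagreement. Chrnb4 and Tubb3 were under the floor both in serum-free medium and in serum, so the order of those media is not read for them. Elavl4 was highest in serum-free medium. Gap43 was lowest in serum, and its levels with retinoic acid and in serum-free medium differed by -0.06, within that disagreement. The widest range was that of Stmn2, which encodes stathmin 2 (SCG10), a protein of growing axons that binds tubulin and destabilises microtubules. Its log2 level was 11.49 with retinoic acid, 10.15 in serum-free medium and 9.75 in serum, or intensities of 2867, 1137 and 864. Stmn2 was thus 2.52-fold higher with retinoic acid than without (1.33), the only one of the 9 members past 2-fold in that comparison, where 1.05% of 10111 genes were at least 2-fold higher. Its difference was larger than that of 99.4% of those genes. Between serum-free and serum it differed by 0.40, and between retinoic acid and serum by 1.73, or 3.32-fold, which placed it at rank 20 from the top of 10169 genes. In whole-explant RNA, fewer cells of a type and less RNA per cell cannot be told apart, here and for the genes that follow.

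**Figure D1:**
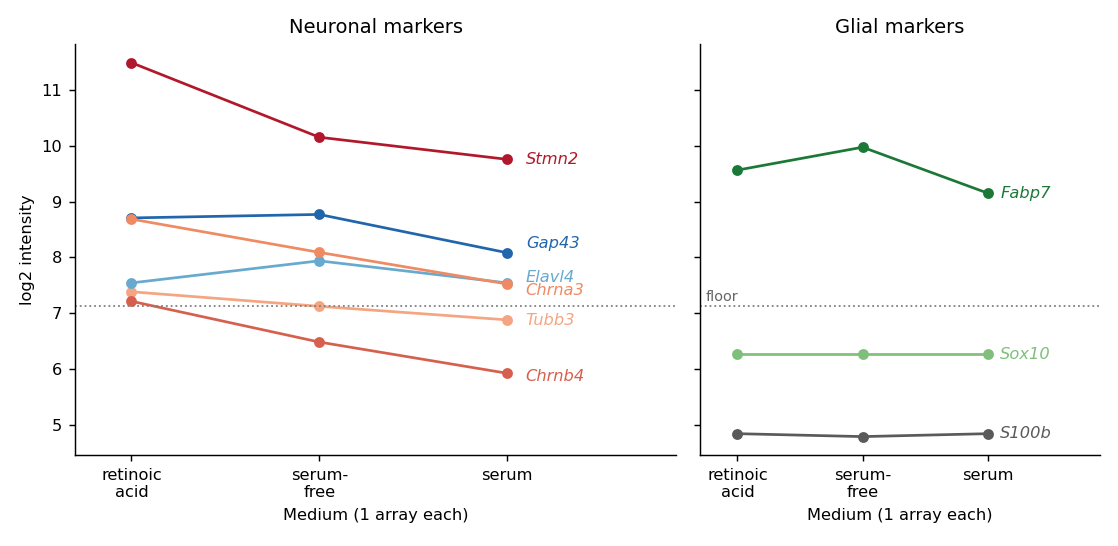
Log2 intensity (vertical axis) of the 6 neuronal genes (left panel) and the 3 glial genes (right panel) in retinoic acid, serum-free and serum medium, 1 point per array, with lines that only join the points of a gene and a dotted line at the floor of 7.12. Stmn2 reaches 11.49 with retinoic acid, against 10.15 and 9.75 on the other arrays, while Sox10 and S100b lie under the floor throughout.

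The other stathmin genes differed less. Stmn3, which like Stmn2 is mainly neuronal, was at 9.30 with retinoic acid, 9.05 in serum-free medium and 8.48 in serum. Stmn1, the family member of dividing cells in general, was at 12.81, 12.69 and 12.69 in the same order, and Stmn4 stayed under the floor at 6.78, 6.78 and 6.61. The step between retinoic acid and serum-free was therefore 1.33 for Stmn2, 0.25 for Stmn3, 0.12 for Stmn1 and 0.00 for Stmn4.

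Tubb3 encodes the beta tubulin isotype of neurons. It was at 7.38 with retinoic acid, 7.12 in serum-free medium, just under the floor, and 6.88 in serum. Its steps of 0.26 and 0.24 are each smaller than the disagreement between probe sets given above, and its difference between retinoic acid and serum, 0.50, is larger. Of 7 beta tubulin genes measured, Tubb3 had the highest value in that comparison, and the others lay between -0.28 (Tubb6) and 0.01 (Tubb2b).

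Chrna3 and Chrnb4 encode the alpha3 and beta4 subunits, which combine to form the main nicotinic receptor of autonomic ganglia. Chrna3 was at 8.68 with retinoic acid, 8.09 in serum-free medium and 7.52 in serum, and Chrnb4 at 7.21, 6.48 and 5.93. Chrnb4 was under the floor in serum-free medium and in serum, so its value between those media is not read as a step. Its rise with retinoic acid starts from under the floor, so the size is less certain than for Chrna3. In retinoic acid against serum-free Chrna3 differed by 0.60 and Chrnb4 by 0.73, and in serum-free against serum they differed by 0.57 and 0.56. In retinoic acid against serum they were 2.24-fold (1.16) and 2.44-fold (1.29) higher. With Stmn2 they were the 3 of 9 members past 2-fold there, where 1.04% of 10169 genes passed that size upwards and 0.816% downwards. Chrnb4 entered that count through the retinoic acid array alone, and its serum level is under the floor, so its fold is the least certain of the 3. After 32 was added to each intensity to damp low values, Chrnb4 differed by 0.96 and the count became 2.

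In the RefSeq gene table (assembly GRCm38.p6) Chrna3 and Chrnb4 are neighbours on mouse chromosome 9, and Chrna5, which encodes a further subunit that can join them in 1 receptor, is next to Chrna3 on the other side. Chrna5 never reached the floor, with levels of 6.44 with retinoic acid, 5.42 in serum-free medium and 5.49 in serum. It differed by 1.02 in retinoic acid against serum-free but by -0.07 in serum-free against serum, and being under the floor neither value is read as a step or as its absence. The 7 measured genes nearest to the 3 subunit genes, Psma4, AY074887, Hykk and Ireb2 on one side and Ube2q2, Fbxo22 and Nrg4 on the other, differed by at most 0.08 in size in any of the 3 comparisons. Of these, AY074887 (5.14) and Nrg4 (4.45) were under the floor with the same value on every array. Psma4, Hykk, Ireb2 and Fbxo22 tied exactly between retinoic acid and serum-free, which does not measure equal expression.

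**Figure D2:**
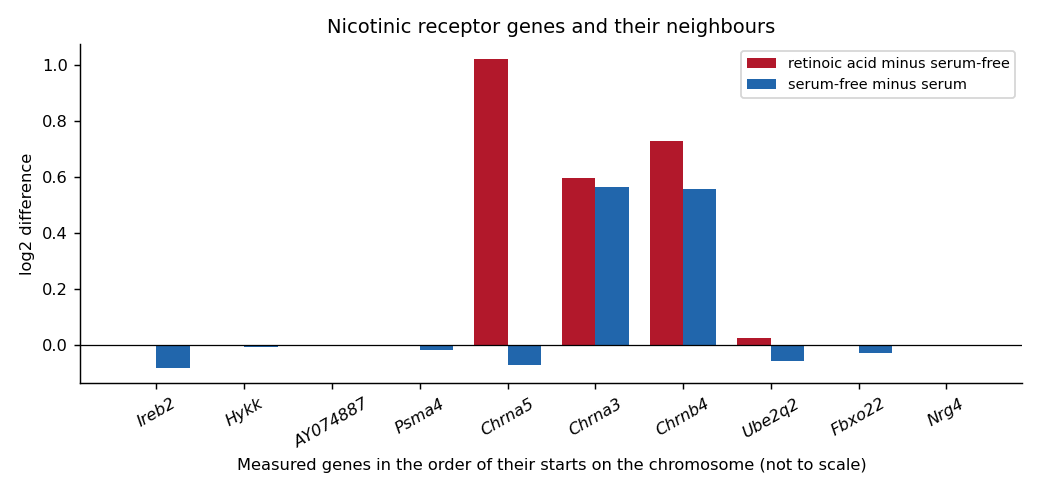
Log2 differences (vertical axis) of the 3 neighbouring nicotinic receptor genes and the 7 measured genes around them, ordered along the horizontal axis by their starts on the chromosome and not to scale, with red bars for retinoic acid minus serum-free and blue bars for serum-free minus serum (1 array per medium). Chrna3 and Chrnb4 have both bars between 0.56 and 0.73, Chrna5 has only the red one above 0, and the genes around them stay within 0.08 of 0. Chrna5, AY074887 and Nrg4 were under the floor on every array, and Chrnb4 was under it in serum-free medium and in serum.

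The 250 bases before and 50 after the annotated start of these 3 genes are shown because they share a stretch of the genome. Chrna3 and Chrnb4 were higher with retinoic acid, and Chrna5 was under the floor on every array. The same windows of Tubb3, another neuronal member, and Fabp7, the glial member with a measurable level, are added. All are from RefSeq, GRCm38.p6, 5′ to 3′ on the strand of the gene, and 6 of the 9 members had an entry. Capitals mark any match, on either strand, to AGGTCA (a repeated element of retinoic acid receptor sites), CAGCACC (part of the site of REST, a repressor of neuronal genes), CANNTG (E-box, bound by bHLH factors), ACAAAG (bound by Sox factors) or GGGCGG (GC box, bound by Sp1).
Chrnb4, chr9:55048495-55048794, minus strand: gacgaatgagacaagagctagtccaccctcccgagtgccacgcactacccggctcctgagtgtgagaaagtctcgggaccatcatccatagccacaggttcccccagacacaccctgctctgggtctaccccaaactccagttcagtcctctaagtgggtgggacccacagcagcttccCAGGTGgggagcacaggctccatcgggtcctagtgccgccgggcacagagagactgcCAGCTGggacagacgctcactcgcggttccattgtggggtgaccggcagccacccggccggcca
Chrna3, chr9:55026513-55026812, minus strand: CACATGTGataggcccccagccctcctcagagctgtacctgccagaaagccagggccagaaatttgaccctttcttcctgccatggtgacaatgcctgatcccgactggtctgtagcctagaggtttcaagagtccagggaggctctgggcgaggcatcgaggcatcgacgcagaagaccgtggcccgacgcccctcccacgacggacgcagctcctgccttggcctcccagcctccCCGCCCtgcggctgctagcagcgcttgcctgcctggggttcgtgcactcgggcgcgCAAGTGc
Chrna5 first start, chr9:54980630-54980929, plus strand: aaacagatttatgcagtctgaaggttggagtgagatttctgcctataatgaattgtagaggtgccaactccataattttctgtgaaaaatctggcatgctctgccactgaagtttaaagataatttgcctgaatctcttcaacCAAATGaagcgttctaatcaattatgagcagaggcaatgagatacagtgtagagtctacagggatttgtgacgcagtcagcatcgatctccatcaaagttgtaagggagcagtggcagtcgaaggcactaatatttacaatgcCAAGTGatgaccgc
Chrna5 second start, chr9:54981238-54981537, plus strand: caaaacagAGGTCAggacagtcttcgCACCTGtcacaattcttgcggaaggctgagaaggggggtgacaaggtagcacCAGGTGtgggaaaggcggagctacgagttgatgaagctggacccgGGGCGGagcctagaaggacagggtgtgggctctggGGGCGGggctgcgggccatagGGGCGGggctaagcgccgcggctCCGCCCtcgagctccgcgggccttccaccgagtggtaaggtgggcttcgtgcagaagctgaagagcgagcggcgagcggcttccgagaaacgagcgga
Tubb3, chr8:123411303-123411602, plus strand: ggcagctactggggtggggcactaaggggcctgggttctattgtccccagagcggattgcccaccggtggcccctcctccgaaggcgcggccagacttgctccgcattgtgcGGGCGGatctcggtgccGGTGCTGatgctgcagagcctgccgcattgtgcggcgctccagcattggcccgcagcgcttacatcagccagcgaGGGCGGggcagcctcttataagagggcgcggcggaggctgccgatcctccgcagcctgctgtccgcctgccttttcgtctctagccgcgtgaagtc
Fabp7, chr10:57784673-57784972, plus strand: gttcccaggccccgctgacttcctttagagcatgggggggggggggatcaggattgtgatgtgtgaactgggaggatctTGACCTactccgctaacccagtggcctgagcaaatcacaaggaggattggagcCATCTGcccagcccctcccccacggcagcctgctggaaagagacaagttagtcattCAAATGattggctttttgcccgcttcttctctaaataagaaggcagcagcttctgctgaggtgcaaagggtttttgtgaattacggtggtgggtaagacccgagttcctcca

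AGGTCA was found once in the second Chrna5 window and once in that of Fabp7, and not in those of Chrna3, Chrnb4 or Tubb3. It is in 16.3% of 32851 windows of the same length in the table. CANNTG was found 2 times in Chrnb4, 3 times in Chrna3 (of which 2 overlap each other), 2 times in each Chrna5 window and 2 times in Fabp7. It is in 72.3% of all windows. GGGCGG was found 1 time in Chrna3, 4 times in the second Chrna5 window and 2 times in Tubb3 (35.7% of all windows), and CAGCACC only in Tubb3 (7.14%). ACAAAG was found in none of these 6 windows (18.7%). No match overlapped one to another motif. These are matches of letters and not measured binding, and the windows leave out any distant element.

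Of 16 nicotinic receptor subunit genes measured, 10 had exactly equal values on all 3 arrays, and 13 stayed under the floor throughout. Among all 19938 genes, 38.4% had equal values on all arrays and 10241 reached the floor on some array. The only other one above the floor was Chrna4, a subunit known mostly from brain receptors, at 8.85 with retinoic acid, 8.23 in serum-free medium and 8.20 in serum. Its difference of 0.62 in retinoic acid against serum-free was close to that of Chrna3, but it differed by 0.03 in serum-free against serum. Chrnb2 was at 6.72, 6.81 and 6.49. The muscle subunit genes Chrna1 and Chrng were under the floor with tied values on the arrays (4.91 and 5.45 on each), so neither is read.

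Gap43 encodes a membrane protein of axonal growth cones. It was at 8.71 with retinoic acid, 8.77 in serum-free medium and 8.08 in serum. The first 2 arrays differed by -0.06, within the disagreement of probe sets, and both lay above the serum array, by 0.62 and by 0.69 (1.61-fold) in that order. Basp1, Marcks and Marcksl1, which encode related membrane proteins of growth cones and of many other cells, differed by at most 0.05 between any of these arrays. Basp1 and Marcksl1 had exactly equal values on all of them, which does not measure equal expression.

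Elavl4 encodes HuD, an RNA-binding protein that stabilises transcripts of differentiating neurons. It was at 7.54 with retinoic acid, 7.94 in serum-free medium and 7.54 in serum, a value exactly equal to that with retinoic acid. It was the only neuronal member lower with retinoic acid than without by more than the probe set disagreement (-0.40). The neuronal family members Elavl2 (7.37, 7.56 and 7.22) and Elavl3 (7.56, 7.56 and 7.21) were likewise higher in serum-free medium than in serum, by 0.35 and 0.36. They differed by -0.19 and 0.00 between retinoic acid and serum-free, and Elavl1, which is made in all cells, by -0.02.

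The glial genes gave less to read. Fabp7, which encodes the brain fatty acid binding protein of glial and Schwann cell precursors and of radial glia, was at 9.56 with retinoic acid, 9.97 in serum-free medium and 9.15 in serum. It was 1.77-fold higher in serum-free medium than in serum (0.82), the largest such difference of the 9 members, and lower with retinoic acid than without by -0.41. Like Elavl4, Fabp7 was highest in serum-free medium, and like Gap43 it was lowest in serum. Sox10 was at 6.26 on all 3 arrays and S100b, which encodes a calcium-binding protein of mature glia and of some other cells, at 4.84, 4.79 and 4.84, so neither had a level above the floor that could be compared. Fabp5, a widely expressed gene of the same family, was at 9.89, 10.66 and 9.76. It differed by 0.90 in serum-free against serum, near the 0.82 of Fabp7, and by -0.77 in retinoic acid against serum-free, further than the -0.41 of Fabp7.

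Among the 3 glial members, a level above the floor thus came from Fabp7 alone. Several other genes of glia and their precursors were also low: Foxd3 (5.87), Cdh19 (3.58), Sox2 (4.24), Gfap (4.86), Dhh (5.63) and Mbp (6.86) were under the floor with the same value on all arrays. Of 35 other glial and Schwann precursor genes measured, 12 were under the floor on every array and 23 reached it, and the median difference was 0.00 in each comparison. Over all 19938 genes, 10241 reached the floor on some array, so the list as a whole was not unusually low. Among the 23 were Pmp22 (11.08 with retinoic acid), Gpm6b (10.53), Zeb2 (9.91) and Ngfr (9.16). Another of the 23 was Ednrb, an endothelin receptor gene of neural crest and endothelium, at 9.81 with retinoic acid, 9.04 in serum-free medium and 8.84 in serum. The receptor gene Erbb3, which epithelia also express, was at 8.30 with retinoic acid, 8.20 in serum-free medium and 8.41 in serum. Gfra3, the artemin receptor gene of both glial precursors and young sympathetic neurons, was at 7.98, 8.84 and 7.77, which is 1.08 higher in serum-free medium than in serum and -0.86 with retinoic acid against serum-free. The list went both ways in retinoic acid against serum-free, with 4 genes at least 1.5-fold lower (1.94% of all genes at the floor) and 3 higher (2.41%). Postn (-1.20), Tfap2a (-1.02) and Moxd1 (-0.82) were lower with Gfra3, and Ednrb (0.77), Sorcs1 (0.66) and Slc1a3 (0.61) were higher.

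Set against each other, the neuronal genes had a median difference of 0.43 in retinoic acid against serum-free, 0.48 in serum-free against serum and 0.89 in retinoic acid against serum. The glial median was 0.00 in each, set by genes under the floor. Against Fabp7 alone, 6 of 6 neuronal genes had the higher difference in retinoic acid against serum-free, 0 of 6 in serum-free against serum and 5 of 6 in retinoic acid against serum. In serum-free against serum the neuronal values take in Tubb3 and Chrnb4, which were under the floor on both arrays. Over the 4 neuronal genes that reached the floor there, the median was also 0.48. The direction of the neuronal-glial contrast between serum-free and serum thus depends on whether the 2 glial genes under the floor are used. Among all genes that reached the floor, the medians were 0.00, -0.00 and -0.01 in the same order of comparisons. The comparisons share arrays and are not independent of each other.

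Over the 9 members, 5 were above 0, 1 at 0 and 3 below in retinoic acid against serum-free, where 20.4% of all 19938 genes were above 0, 51.6% at 0 and 28.0% below. In serum-free against serum 7 were above 0, 1 at 0 and 1 below, where 22.7% of all genes were above, 45.4% at 0 and 31.9% below. In retinoic acid against serum 6 were above, 3 at 0 and 0 below, where 21.0% were above, 46.5% at 0 and 32.4% below. These counts take in genes under the floor on both arrays compared. With those left out, 4 of 7 were above 0 and 3 below in retinoic acid against serum-free. Among all genes at the floor there, 29.5% were above and 35.1% below. In serum-free against serum 5 of 5 were above (19.5% of genes at the floor). In retinoic acid against serum 6 of 7 were above and 1 at 0 (21.2% and 27.5%). None of the 9 reached 2-fold in serum-free against serum, where 0.876% of 10156 genes were at least 2-fold higher and 0.699% lower, and none was 2-fold lower with retinoic acid against serum-free (0.613% of genes). At the 1.5-fold limit, 3 (Stmn2, Chrnb4 and Chrna3) were higher in retinoic acid against serum-free (2.41% of genes), 2 (Fabp7 and Gap43) in serum-free against serum (2.01%) and 4 (Stmn2, Chrnb4, Chrna3 and Gap43) in retinoic acid against serum (2.46%), with 0 lower in each (1.94%, 2.07% and 2.84% of genes).

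**Figure D3:**
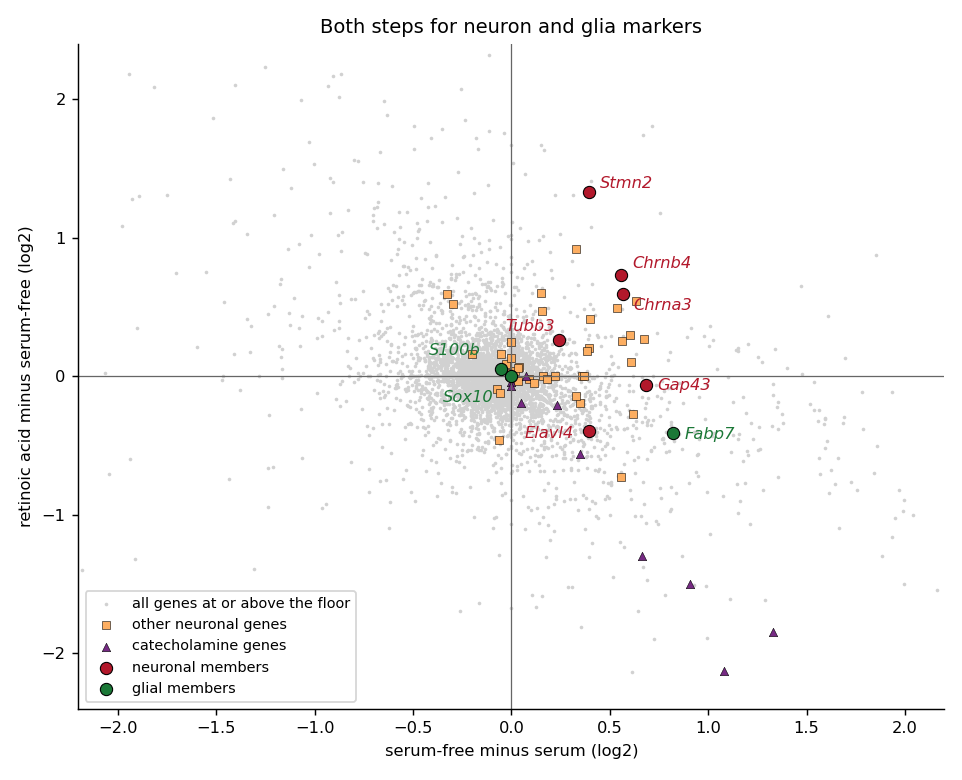
Log2 difference of retinoic acid minus serum-free (vertical axis) against that of serum-free minus serum (horizontal axis) for the members (red and green circles), other neuronal genes (orange squares), catecholamine genes (purple triangles) and the 10241 genes that reached the floor on any array (grey, 14 of them outside the plotted range). Both axes use the same serum-free array, so their points are tied to each other. Stmn2, Chrna3, Chrnb4 and Tubb3 lie above 0 on both axes, and Fabp7 and Elavl4 lie to the right of 0 and below it. On the horizontal axis Chrnb4 and Tubb3 compare values under the floor.

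The wider neuronal list was mixed. Of 49 other pan-neuronal genes measured, 33 were above 0 and 6 below in retinoic acid against serum, with a median of 0.11, and 11 were at least 1.5-fold higher and 0 lower, where the shares over all genes at the floor were 2.46% and 2.84%. Over all 19938 genes, 21.0% were above 0 and 32.4% below. The 3 past 2-fold were Syt4, a synaptotagmin gene of secretory vesicles, at 1.25 (7.17 with retinoic acid, 5.92 in serum, above the floor on the first array only), the neurofilament gene Ina at 1.18 (9.25 and 8.07 in that order) and Rtn1, which encodes a reticulon of neuroendocrine cells, at 1.03. In serum-free against serum 27 were above 0 and 10 below (median 0.03), against 22.7% and 31.9% of all genes. There 5 were at least 1.5-fold higher (2.01% of genes at the floor) and 0 lower (2.07%). The 5 included Map1b at 0.67, Ina at 0.64, Celf3 at 0.62 and Nefm at 0.61. In retinoic acid against serum-free 25 were above 0 and 11 below (median 0.01), against 20.4% and 28.0% of all genes. Syt4 was at 0.92, Kif1a and Sncg at 0.60 each and, on the other side, the synaptic gene Snap25 at -0.73. Of the 49, 16 never reached the floor and 8 had equal values on all arrays. Among all 19938 genes, 10241 reached the floor on some array and 38.4% had equal values on all.

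**Figure D4:**
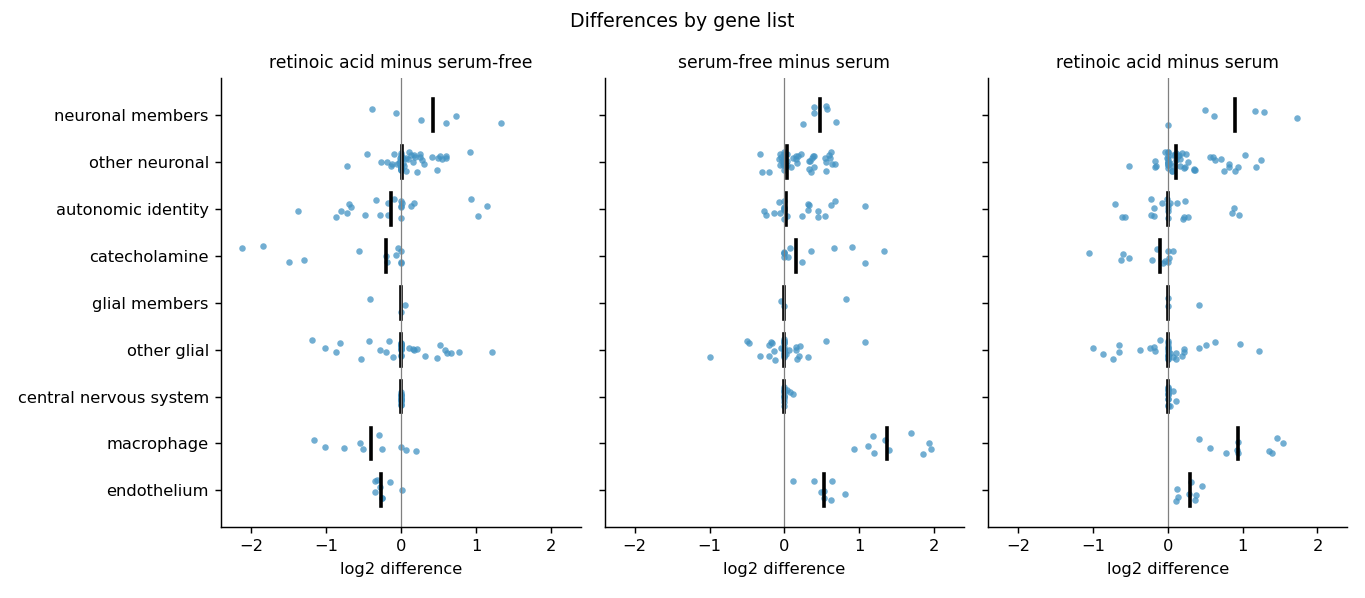
Log2 differences (horizontal axes) of each measured gene (points, spread vertically only for legibility) by gene list, with the list's median as a black bar, for retinoic acid minus serum-free, serum-free minus serum and retinoic acid minus serum (1 array per medium). The neuronal members have medians of 0.43, 0.48 and 0.89, the central nervous system genes stay at about 0, and the macrophage genes have medians of -0.40, 1.37 and 0.93.

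Genes that give autonomic neurons their identity differed in both directions. In serum-free against serum 11 of 22 measured were above 0 and 5 below (median 0.02), with 3 at least 1.5-fold higher (2.01% of all genes at the floor) and 0 lower (2.07%), Gfra3 at 1.08, Hand1 at 0.67 and Insm1, a zinc finger factor gene of neuroendocrine cells, at 0.63. Of the same 22, 12 were below 0 and 6 above in retinoic acid against serum-free (median -0.14), and 6 were at least 1.5-fold lower (1.94% of all genes at the floor) and 2 higher (2.41%). Over all 19938 genes, 22.7% were above 0 and 31.9% below in serum-free against serum. In retinoic acid against serum-free 20.4% were above and 28.0% below. Phox2a, a homeobox gene of noradrenergic and other autonomic neurons, was at 6.88 with retinoic acid, 7.60 in serum-free medium and 7.06 in serum. Hand1 was at 6.52, 7.90 and 7.23, a difference of -1.38 between retinoic acid and serum-free, and Hand2, another bHLH factor gene of sympathetic neurons, at 7.66, 8.33 and 7.88. On the higher side, Slc18a3, which encodes the transporter that loads acetylcholine into vesicles, was at 7.89, 6.96 and 7.01, and Gata2, which the developing kidney also expresses, was higher by 1.14. Phox2a reached the floor on the serum-free array only and Slc18a3 on the retinoic acid array only. Each entered the 1.5-fold counts through that array alone, so the size of its difference is less certain.

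The catecholamine genes were on the other side from Stmn2 with retinoic acid. Against serum-free, 4 of 12 were at least 2-fold lower (0.613% of all genes at the floor) and 0 higher (1.05%). The 4 were Dbh at -2.13, Chga at -1.85, Th at -1.50 and Slc18a1 at -1.29. Th and Slc18a1 reached the floor on the serum-free array only, and 6 of the 12 genes on no array. The floor was reached on some array by 10241 of all 19938 genes. In serum-free against serum, where Stmn2, Chrna3 and Gap43 were higher too, 8 of 12 were above 0 and 4 at 0. Over all 19938 genes, 22.7% were above 0 and 45.4% at 0. Chga differed by 1.33 and Dbh by 1.08.

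Markers of brain and spinal cord stayed low. All 14 measured genes of the central nervous system list, Otx2, Olig2, Neurog2 and Pax6 among them, were under the floor on every array, with summed intensities of 682, 682 and 674 for retinoic acid, serum-free and serum. Of 8 sensory neuron genes 6 were under the floor throughout, including Pou4f1 (4.84 on each array). Of 7 melanocyte genes 6 were, and all 7 adrenal cortex genes. Of all 19938 genes, 10241 reached the floor on some array. Sox1 of the central nervous system list (7.10 with retinoic acid and in serum-free medium) lay just under it. So did Mc2r of the adrenal cortex list with retinoic acid (7.07).

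The genes with the pair of steps closest to the neuronal median pair (0.43 and 0.48), among 9501 others at or above the floor on all 3 arrays, were Ptp4a3, a phosphatase gene (distance 0.05), the neurofilament gene Nefl (0.08), Rtn1 (0.09), and the protocadherin genes Fat4 (0.12) and Dchs1 (0.12). Only 3 genes lay within a distance of 0.1. Nefl was at 9.96 with retinoic acid, 9.55 in serum-free medium and 9.15 in serum, and Ptp4a3 at 10.16, 9.71 and 9.29. The likeness is over 3 arrays. For the glial median pair, 0.00 and 0.00, 2118 genes tied exactly, so none is singled out.

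Other cells of the explant differed between the same arrays. Macrophage genes had a median of 1.37 in serum-free against serum, 9 of the 10 at least 2-fold higher (0.876% of 10156 genes). Their summed intensity was 8825 in serum-free medium and 2993 in serum, with 6351 on the retinoic acid array. All 8 endothelial genes were above 0 in serum-free against serum (median 0.53), against 22.7% of all genes. In retinoic acid against serum-free 7 of 8 were below 0, against 28.0% of all genes, where Stmn2, Chrna3 and Chrnb4 were above 0. The endothelial median there, -0.27, is smaller in size than the probe set disagreement of 0.28. The retinoic acid response gene Rarb had another order than Stmn2, at 11.37 with retinoic acid, 8.43 in serum-free medium and 10.41 in serum. Ecm1, Dhrs3 and Stra6 were also lowest in serum-free medium. Cyp26b1 was under the floor in serum-free medium (6.60) and serum (6.63), and Cyp26a1 on every array. Crabp2 was lowest with retinoic acid (8.91, 9.39 and 9.45). Sex-linked transcripts also differed: Xist was at 9.79, 11.48 and 10.84 in that order of media and the Y-linked Kdm5d at 8.40, 7.21 and 7.74. Whether any of these bears on the neuronal and glial genes was not tested. With 1 array each, the medium cannot be told apart from differences between the explants on it.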

How the data were processed

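RNA of mouse kidney explants in 3 media was measured on 1 Affymetrix Mouse Gene 1.0 ST array per medium, from 250 ng of total RNA per the labels' protocols. The authors deposited linear intensity values, 1 per probe set. Per the submitters' processing notes, the tools were Affymetrix Expression Console 1.1 and RMA. That method corrects background, equalises the arrays' distributions and summarises probes by median polish. No settings for it were given. Median intensities were 84.7 (retinoic acid), 85.5 (serum-free) and 81.5 (serum).

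Intensities were converted to log2 with no pseudocount. Of 35556 probe sets, 21789 named 1 gene, 1621 several and 12146 none in the annotation used, and only the first kind was used. A gene with several probe sets took its brightest probe set (mean of the 3 arrays), for 19938 genes in all. Of those naming 1 gene, 21698 matched the RefSeq gene table. The rule for named genes took all members, up to 4 genes per list that differed most in size and reached the floor, the members' protein families, and the 5 genes with the nearest pair of differences (Euclidean). Other genes, such as those under the floor or neighbouring Chrna3, were named after their values were seen. The members and lists were chosen with earlier results of these data known. With 1 array per medium no test was made, and counts are by size only. Alternatives were 32 added to the intensities, median centring, cyclic loess (limma 3.58.1), the mean of a gene's probe sets, and other uses of the floor. Python 3.11.15, pandas 2.3.3 and numpy 2.4.6 were used.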

Additional observations from a re-analysis of the deposited data

How the results depend on the processing

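With 1 array per medium there is no spread, so a value was taken to hold when it moved by less than the 95th percentile of the disagreement between probe sets (0.28, 0.28 and 0.33). Of 108 values of single members under 32 added to the intensities, median centring, cyclic loess and the mean of probe sets, 107 held and none with a difference other than 0 changed sign; Chrnb4 in retinoic acid against serum moved to 0.96 with 32 added, which took the number of members at least 2-fold higher there to 2 in place of 3. The mean of probe sets changed nothing by construction, since each member has 1. Median centring removed shifts of at most 0.07. Keeping only members that reached the floor left Fabp7 as the sole glial gene. The glial median then became -0.41 in retinoic acid against serum-free, 0.82 in serum-free against serum and 0.41 in retinoic acid against serum, and the neuronal minus glial difference 0.84, -0.34 and 0.48 in the same order, against 0.43, 0.48 and 0.89 with all 9, so it reversed in serum-free against serum. Apart from that count, the other medians and counts moved by less than these limits. No paired analysis was possible because each medium has 1 array. Sox10 and S100b stayed under the floor on every array, so their differences were not read.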

Other observations

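Ligands that attract or repel nerves or support neural crest cells were measured in the same explants. Of 19 neurotrophic and guidance genes, 12 were below 0 and 4 above in serum-free against serum (median -0.11), against 31.9% and 22.7% of all genes. In that comparison 0 reached 1.5-fold in either direction, where 2.01% of genes at the floor were higher and 2.07% lower. The largest were the repellent gene Slit2 at -0.58, the ephrin gene Efnb1 at -0.53, the chemokine gene Cxcl12 at -0.48 and Sema3a at -0.39. In retinoic acid against serum-free 3 were at least 1.5-fold higher (2.41% of genes at the floor) and 0 lower (1.94%). The 3 were Efnb1 at 0.74, Slit2 at 0.65 and Kitl, which encodes the ligand of the receptor Kit, at 0.64. Edn3, the endothelin gene that enteric and pigment cell precursors need, was at -0.54. Cxcl12, at -0.85, was the only one of the 19 past 1.5-fold in retinoic acid against serum (2.84% of genes lower and 2.46% higher). Gdnf was at 9.15 with retinoic acid, 9.31 in serum-free medium and 9.41 in serum. Bdnf (5.39 on each array) and Artn (5.73, 5.73 and 5.84) were under the floor. Whether these levels bear on the neuronal genes was not tested.

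Among the SoxE genes, the relatives of Sox10 had measurable levels. Sox9, a gene of ureteric tips and many other progenitors, was at 10.40 with retinoic acid, 9.63 in serum-free medium and 10.12 in serum, and Sox8 at 8.06, 7.74 and 8.06. Both were lowest in serum-free medium, where Fabp7 was highest. Of 16 S100 genes 12 were under the floor on every array, and the 4 that reached it lay between -0.24 and 0.22 at each of the 2 steps. The floor was reached on some array by 10241 of all 19938 genes.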
